A study of Leucoraja erinaceus with 4 samples.

Results

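A set of 245 assembled genes of the little skate, Leucoraja erinacea, was long, well covered and present at much the same share of the reads in 4 tissues of 1 adult animal. They were selected on the measured values from 186064 assembled genes by 3 limits. The length, averaged over the libraries, was 1000 bases or more (19582 assembled genes). At least 500 reads fell on the assembled gene in each library (1045 of those 19582, called the long abundant genes here). The highest CPM was at most 2 times the lowest, where CPM is the number of reads per 1000000 reads of that library's total. The level, the ratio of highest to lowest and the mean length therefore describe the selection and are given with no test.

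The libraries came from ampullary receptor cells (the electroreceptors), the ampullary canals leading to those cells, skin of the body free of electroreceptors, and liver, of which 4 mg was taken. Each tissue gave 1 library of poly(A) RNA, no genotype or treatment is labelled, and all 4 libraries share the 1 animal. There is thus no replicate and no p-value, and intervals below cover the counting of reads only. Totals were 12240037 reads from receptor cells, 12303108 from canals, 11716890 from skin and 11071249 from liver, and 48.2% of the liver reads fell on its 50 most abundant assembled genes, against 18.9% to 27.9% in the other libraries. The identifiers are assembly numbers without gene names: 0 of them matched the 23250 genes of the skate reference table, so the functions of the members and the markers of the labelled tissues were not examined.

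Genes that nearly every cell needs, such as those for the cytoskeleton, protein synthesis and breakdown, or basic metabolism, are commonly called housekeeping genes and are used as references between tissues. RNA sequencing measures a share of a library and not an amount per cell. If a tissue makes large amounts of a few messages, as liver does for plasma proteins, the shares of all other messages become smaller even when their amounts per cell do not. A steady share is therefore a statement about a library, and whether a transcript counts as steady depends on what the library is scaled to. In whole tissue, fewer cells of a type and less RNA per cell cannot be told apart either.

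Of the 1045 long abundant genes, 245 (23.4%) stayed within the 2-fold limit. The median ratio of highest to lowest CPM was 1.68 among the members and 2.78 among all 1045. The other 800 had a median of 3.18 and reached 135.8. Among the members, 65 stayed within 1.5-fold and 8 within 1.2-fold, while 40 lay above 1.9-fold and so close to the limit. Most members thus sat in the upper part of the permitted range, and the set had no gap at its edge, as the plot of ratios shows. Just inside were c91419_g1 (ratio 1.999, counting interval 1.901 to 2.102) and c54471_g1 (1.998, 1.83 to 2.18), and just outside were c83519_g1 (2.004, 1.81 to 2.22) and c74816_g1 (2.005, 1.83 to 2.20). The intervals of these 4 overlap almost wholly. In 73 members the interval of the ratio extended above 2, and in 58 of the 800 others it extended down to 2 or below.

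**Figure D1:**
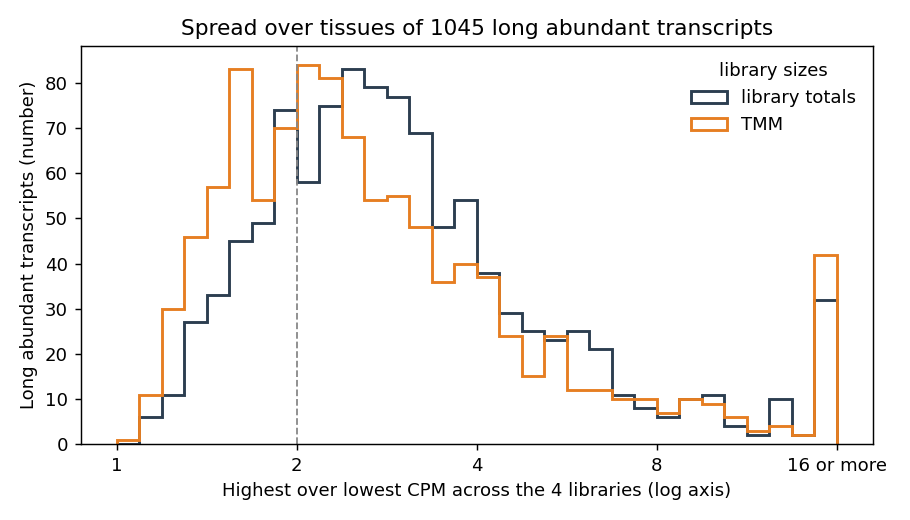
Ratio of the highest to the lowest CPM over the 4 libraries (log axis) for the 1045 long abundant genes, as a histogram with library sizes taken as totals or TMM-scaled; the last bin holds all larger ratios. The dashed line is the 2-fold limit, with 245 assembled genes to its left by library totals and 352 by TMM.

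The most even member was c87762_g3 (1462 bases). It had 873 reads from receptor cells, 919 from canals, 924 from skin and 814 from liver, which is 71.3, 74.7, 78.9 and 73.5 CPM. Its ratio was 1.11 (95% interval 1.007 to 1.21); intervals of this kind treat the highest and lowest library as fixed beforehand and are too narrow for extremes picked from 4 values. Next was c86008_g1 (4142 bases), with 137.4 CPM from receptor cells, 123.7 from canals, 139.0 from skin and 137.1 from liver, a ratio of 1.12 (1.05 to 1.21). The third was c78507_g1 (3050 bases), with 219.7, 194.3, 200.2 and 201.8 CPM in the same order, a ratio of 1.13 (1.07 to 1.19). In the last 2 of these, canals were the lowest library.

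By library totals, most differences between 2 given libraries in a member were nevertheless larger than counting error. Of the 1470 single comparisons of 2 libraries in 1 member, 265 (18.0%) had an interval that included 1. The pair of receptor cells and skin had the most (49 of 245) and the pair of skin and liver the fewest (37). Steady here thus means a limited difference and not, in most pairs, the absence of one. The same share was not computed for the long abundant genes as a whole, so it is not particular to the members.

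The members were moderately abundant and similar in weight in every library. Together they took 3.35% of the receptor-cell reads (exact binomial 95% interval 3.34 to 3.36), 3.27% of the canal reads (3.26 to 3.28), 3.36% of the skin reads (3.35 to 3.37) and 2.77% of the liver reads (2.76 to 2.78). The 1045 long abundant genes as a whole took 32.9%, 34.7%, 32.7% and 22.8%, so the members made up 9.43% to 12.1% of their reads. The median member had 98.9 CPM from receptor cells, 92.2 from canals, 99.9 from skin and 77.6 from liver. Only 1 member ranked among the 100 assembled genes with the most reads of a library, at rank 52 in receptor cells. Between 56 (skin) and 99 (liver) members ranked among the first 1000. Liver counts the most there although its member reads are the fewest, since the median member was at rank 1142 in liver and at rank 1801 in receptor cells.

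**Figure D2:**
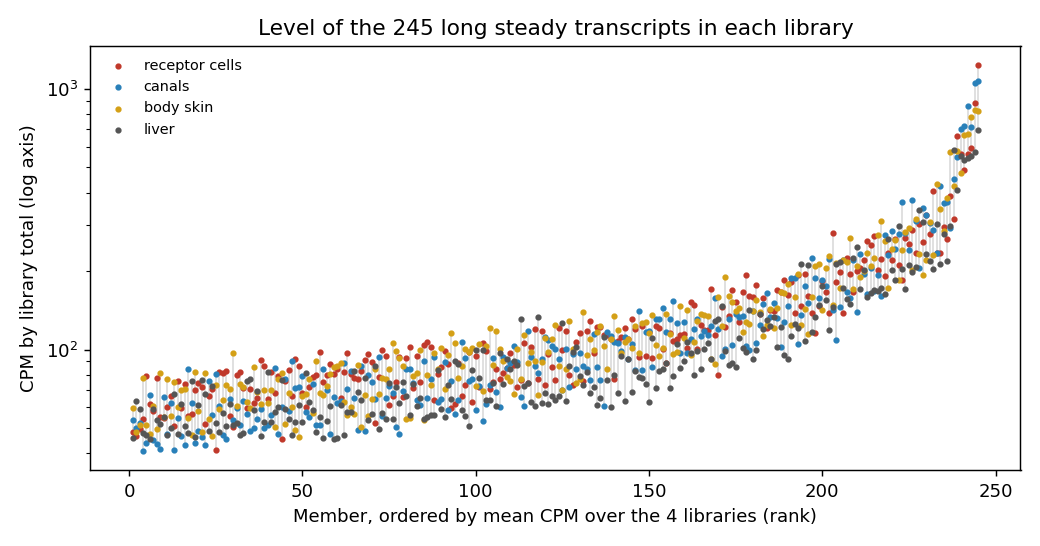
CPM by library total (log axis) of the 245 members in each of the 4 libraries, ordered by their mean; grey lines join the lowest and highest library of a member. Most members lie between the lowest value, 40.8 CPM, and 200 CPM, and 7 have a mean of 500 CPM or more.

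By reads, the most abundant member was c79116_g1 (2858 bases, 4 transcripts). It had 15090 reads from receptor cells, 13199 from canals, 9621 from skin and 7701 from liver, or 1233, 1073, 821.1 and 695.6 CPM. The receptor-cell library was the highest and liver the lowest, 1.77-fold apart (1.72 to 1.82). Per length, the order among members was another. Assembled gene c68004_g1 (1656 bases) had the highest TPM (transcripts per 1000000, which corrects for length), at 699.4 from receptor cells, 768.8 from canals, 641.7 from skin and 473.6 from liver. Its 10777, 12968, 9690 and 6358 reads gave a CPM ratio of 1.84 (1.78 to 1.89), with canals the highest. The remaining one of the 3 leading members by reads was c113545_g1 (1634 bases), with 480.4, 531.3, 614.7 and 463.7 TPM, highest in skin. All 3 had their lowest level in liver, and each had its highest in a different tissue. The median member had a mean TPM of 48.2, and 12 members reached 200 or more.

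Members were less frequent at high mean levels. Of the long abundant genes with a mean of 200 CPM or more, 34 of 329 (10.3%) were members, against 140 of 311 (45.0%) of those with a mean below 100 CPM. The minimum of 500 reads equals 40.6 to 45.2 CPM, so an assembled gene with a mean near it cannot have a low library and a large ratio. Among the 350 long abundant genes with 1000 reads or more in each library, 83 (23.7%) were within 2-fold, close to the share of all. At the edge of the read limit lay c89151_g1 and c91184_g1, both with 502 reads in their lowest library, and outside it c76994_g1 with 499 and c81882_g1 with 496.

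The members' mean lengths ran from 1008 to 14570 bases with a median of 2501, and the 800 other long abundant genes had a median of 2865. Within 2-fold were 26.5% of the 272 long abundant genes under 2000 bases, 27.2% of the 305 from 2000 to under 3000, 20.7% of the 299 from 3000 to under 5000, and 16.6% of the 169 of 5000 bases or more. Of 134 assembled genes below 1000 bases with the same number of reads, 20 (14.9%) were within 2-fold. The share was thus lower on both sides of the 1000 to 3000 base range; assembled genes are not replicates and these differences were not tested. The length limit itself fell between c63130_g1 (1008 bases) and c76198_g1 (1033) inside, and c91688_g3 (979.7) and c71612_g1 (977) outside.

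Of the 15 long abundant genes of 10000 bases or more, 3 (20.0%) were members, close to the share of all long abundant genes. The longest, c94975_g1 (14570 bases, 2 transcripts), had 1221 reads from receptor cells, 685 from canals, 913 from skin and 633 from liver. Next came c94178_g1 (13938 bases, 8 transcripts), with 3330, 2057, 2638 and 1865 reads. Both were highest in receptor cells and lowest in canals by CPM, 1.79-fold (1.63 to 1.97) and 1.63-fold (1.54 to 1.72) apart. The third, c94662_g2 (10012 bases), went the other way, with 641, 795, 982 and 958 reads, lowest in receptor cells and highest in liver, 1.65-fold apart (1.49 to 1.83).

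Within the permitted range the tissues did not contribute evenly. By library totals, liver was the lowest library for 124 of the 245 members (50.6%), canals for 59, skin for 34 and receptor cells for 28. Skin was the highest for 86, receptor cells for 79, canals for 53 and liver for 27. The long abundant genes as a whole had a similar make-up, with liver lowest in 64.0%, skin highest in 36.6% and receptor cells highest in 32.5%. Canals were lowest in 16.3% of that group and skin in 8.61%, against 24.1% and 13.9% of the members. The members thus had liver lowest less often, and canals and skin lowest more often. The limit acted on these same values, so this difference describes the selection. The shares for the highest library were similar. All 24 possible orders of the 4 libraries occurred. The most frequent, receptor cells above skin above canals above liver, held 27 members, and the next, with skin and receptor cells exchanged, held 25.

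Pair by pair and by library totals, the largest contrast was between liver and the other tissues. The median member was 1.27-fold higher in skin than in liver, 1.21-fold above liver in receptor cells and 1.15-fold above liver in canals. The remaining pairs differed less, with medians of 1.096-fold for receptor cells over canals, 1.012-fold for receptor cells over skin and 1.08-fold for skin over canals. Across the members the spread of the log2 ratio had an SD of 0.43 to 0.46 in every pair, and across the 1045 long abundant genes it was 0.91 (receptor cells and canals) to 1.18 (receptor cells and liver). This spread is the same under every scaling that divides a library by 1 factor; with the deposited TPM it was 0.44 to 0.52 among the members. Among all long abundant genes the pairs with liver were the 3 widest, whereas among the members no pair stood out, which the limit on the ratio imposes.

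Differences of 1.5-fold or more were counted in each pair as a measure of size, beside the share of the 1045 long abundant genes that passed the same size. Since the rule limited these same ratios, the smaller shares among members follow from it. In receptor cells against liver, 75 members (30.6%) were higher and 6 lower, beside 58.8% and 10.5% of the long abundant genes. In skin against liver, 61 were higher and 11 lower, beside 59.9% and 9.47%. In canals against liver, 52 were higher and 19 lower, beside 49.0% and 12.4%. In the pairs with liver, then, the members leaned to the side of the other tissue by library totals, as the long abundant genes did. For the members this direction turned with TMM, where the median log2 ratio over liver was -1.01 for receptor cells, -0.54 for skin and -0.54 for canals. With totals without the 50 dominant assembled genes it turned too, with medians of -0.31, -0.22 and -0.34. For the 1045 long abundant genes, in the same order, the medians were -0.52, -0.09 and -0.17 with TMM. Without the 50 dominant they were 0.18, 0.22 and 0.03, so the long abundant genes as a whole did not turn there.

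The pairs without liver had fewer such differences. In receptor cells against canals, 39 members were higher and 14 lower, beside 28.8% and 16.7% of the long abundant genes. In receptor cells against skin, 19 were higher and 23 lower, beside 21.1% and 27.0%. In canals against skin, 16 were higher and 43 lower, beside 16.4% and 34.6%. By library totals, receptor cells and skin had the most balanced split of the 6 pairs. Under TMM the receptor-cell level was the lower one in both of its pairs here, with a median log2 ratio of -0.41 over canals and -0.39 over skin. By library totals these medians were 0.13 and 0.02. For the 1045 long abundant genes they were -0.34 and -0.43 under TMM, and 0.21 and -0.02 by library totals. In both sets the direction against canals thus turned, while the pair with skin had been near even.

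Individual members showed how far, by library totals, a single tissue could stand apart and remain within the limit. For receptor cells the extreme was c76059_g1 (2311 bases), with 279.9 CPM there and 141.7 in canals, 147.8 in skin and 146.0 in liver. Its 3 other libraries lay close together, and receptor cells stood 1.89-fold above the nearest of them. For skin it was c91989_g1 (2798 bases), with 97.1 CPM there and 50.5 in receptor cells, 53.4 in canals and 51.4 in liver, 1.82-fold above the nearest. For liver it was c86982_g1 (4478 bases), with 130.7 CPM there and 76.6, 65.9 and 77.0 in receptor cells, canals and skin, 1.70-fold above the nearest. For canals it was c90572_g1 (1931 bases), with 367.1 CPM there and 184.7, 241.8 and 203.3 in receptor cells, skin and liver, 1.52-fold above the nearest. In each of these, 1 tissue stood apart and the other 3 lay closer together.

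In the other direction, c64195_g1 (5438 bases) had 62.8 CPM in liver and 116.7, 117.5 and 115.9 in receptor cells, canals and skin, the liver level being 1.85-fold below the nearest. Assembled gene c80147_g1 (2513 bases) had 60.6 CPM in canals and 114.0, 103.4 and 111.5 in receptor cells, skin and liver, 1.71-fold below the nearest. The receptor-cell extreme, c76425_g1 (1970 bases), had 79.5 CPM there and 120.3, 158.4 and 131.2 in canals, skin and liver, 1.51-fold below. The skin extreme, c81125_g1 (1767 bases), had 192.4 CPM there and 258.2, 347.7 and 307.4 in receptor cells, canals and liver, 1.34-fold below. The liver profile of c64195_g1 was the clearest of these by library totals, with the remaining 3 tissues nearly equal. Such profiles depend on the scaling. With TMM, receptor cells were the highest library for 0 members and liver was the lowest for 0. There c76059_g1 was thus not highest in receptor cells, and c64195_g1 was not lowest in liver.

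Of the 800 long abundant genes outside the limit, 578 came within 2-fold when 1 library was left out. For 150 of these more than 1 library could be left out, and for 428 it was 1 library only. That library was liver in 222 of the 428, skin in 87, receptor cells in 61 and canals in 58. By library totals, liver was below the others in 194 of its 222, whereas skin was above the others in 82 of 87, receptor cells in 52 of 61 and canals in 46 of 58. The low liver values depended on the scaling, since 126 of the 194 were within 2-fold under TMM, the scaling described next.

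The set changed when the libraries were scaled in another way. TMM factors, which bring the bulk of assembled genes of the libraries to the same level, enlarge the receptor-cell library 2.44 times, the skin library 1.84 times and the canal library 1.67 times relative to the liver library, on top of the difference in totals. Under TMM, 352 of the 1045 long abundant genes (33.7%) were within 2-fold, and 109 of the 245 members were among them. These are 44.5% of the members and 31.0% of the 352. The 243 that were within 2-fold under TMM only had ratios of 2.01 to 4.88 by library totals, and liver was their lowest library in 238 cases. The number of steady assembled genes was thus larger, and most of them were not members.

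Which tissue was highest turned with the scaling. Under TMM, liver was the highest library for 203 members (82.9%) and the lowest for 0. Receptor cells were the lowest for 164 members (66.9%) and the highest for 0. Among the long abundant genes as a whole, liver was the highest library under TMM in 35.8% and the lowest in 13.8%. Receptor cells were the lowest in 50.1% of them and the highest in 10.7%. For the members under TMM, the median was 2.01-fold higher in liver than in receptor cells, and all 245 were higher in liver. The limit fixed this and the members' counts of 0 in advance. A receptor-cell level at most 2 times that of liver by totals is divided by 2.44 under TMM. By library totals 181 of the 245 members were higher in receptor cells and 64 in liver. For the members as a group, the direction between receptor cells and liver under TMM thus follows from the limit and the factors. Between canals and skin the median moved only from -0.12 to 0.02 on the log2 scale (canals over skin).

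**Figure D3:**
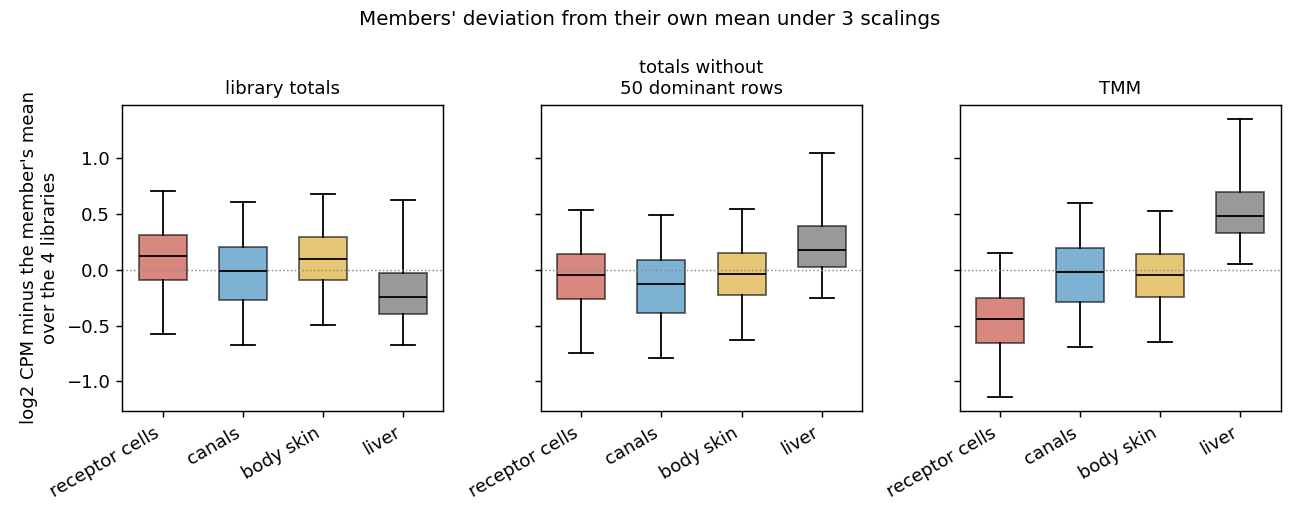
Log2 CPM of the 245 members minus each member's mean over the 4 libraries, for library totals, totals without the 50 dominant assembled genes, and TMM; boxes span the quartiles, lines the medians, and whiskers the full range. Liver is the lowest library at the median by totals and the highest in the other 2 panels.

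Membership under TMM followed the order of receptor cells and liver. Of the 44 members with receptor cells highest and liver lowest by totals, 43 were within 2-fold under TMM. None of the 64 members higher in liver than in receptor cells was. The limit and the size of the factors impose the count for the 64 and largely also that for the 44. The 3 most even members by totals had TMM ratios of 2.52 (c87762_g3), 2.44 (c86008_g1) and 2.24 (c78507_g1), all outside the limit. Conversely, the 3 most even under TMM were near the limit by totals. Assembled gene c82975_g1 (5498 bases) had 1463 reads from receptor cells, 1063 from canals, 1061 from skin and 675 from liver, a ratio of 1.96 by totals and 1.246 by TMM. Assembled gene c78387_g1 (1829 bases) had 2269, 1574, 1931 and 1059 reads, with 1.94 and 1.26. The third, c92313_g1 (3877 bases), had 1489, 1056, 1368 and 680 reads, with 1.98 and 1.27. The 3 most even members by totals and the 3 by TMM have none in common. The factors impose this, since those of receptor cells and liver differ 2.44-fold. A member that is nearly even by 1 of these scalings cannot be so by the other.

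Other scalings fell between these or near TMM. DESeq2-type size factors (RLE) gave 332 long abundant genes within 2-fold (31.8%), with 99 members, and upper-quartile factors gave 336 (32.2%), with 89 members. Totals without the 50 most dominant assembled genes gave 386 (36.9%), with 202 members. The deposited TPM gave 250 (23.9%), with 217 members. Library totals, the scaling that chose the set, gave the smallest number of steady long abundant genes of the 6 scalings.

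A core of 82 members (33.5%) stayed within 2-fold under all 6 scalings. Among all long abundant genes the share was 7.85%, with the same 82. Library totals, which chose the members, are among the 6 scalings, so no other long abundant gene could belong to the core. The mean lengths of the core members ran from 1048 to 14570 bases, with a median of 2765. By library totals, liver was lowest in 71 of them and receptor cells highest in 48. The median core member had 107.1 CPM from receptor cells, 89.4 from canals, 94.9 from skin and 62.5 from liver. The core thus combines a mild excess by totals in receptor cells over liver with a mild deficit by TMM. Both follow from how the core was chosen. With a factor of 2.44 between these libraries, only such a member can stay within 2-fold by totals and by TMM. Chosen after the values were seen, the smallest worst ratio over the 6 scalings was that of c83550_g1 (2582 bases), 1.62, with 1253 reads from receptor cells, 1148 from canals, 1144 from skin and 698 from liver. The next, c52098_g1 (1948 bases), had 8069, 6757, 6741 and 4523 reads and a worst ratio of 1.63.

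Several properties were not used to choose the members. An assembled gene can have several assembled transcripts, and 102 members (41.6%) had 2 or more, against 356 of the other 800 long abundant genes (44.5%). The most were found for c79869_g2, with 14 transcripts, and c93540_g3, with 10. Being alone in an assembly cluster (the part of the identifier before "_g") was also about as frequent, with 193 members (78.8%) against 618 of the 800 (77.2%). Number of transcripts and cluster size thus differed little between members and the rest.

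The length columns give the mean length of an assembled gene's transcripts, weighted by how abundant each was in the library, and change between tissues when the mix of transcripts does. Of the 102 members with 2 or more transcripts, 36 (35.3%) had a longest length at least 1.1 times the shortest, beside 31.0% of the 458 long abundant genes with 2 or more transcripts. At 1.5-fold or more there were 6 members (5.88%), beside 5.90%. A steady read count thus came with as much change of transcript length as in the group at large. Canals had the shortest mix in 19 of the 36 (52.8%), liver in 8, skin in 6 and receptor cells in 3. Canals were also the shortest in 66 (46.5%) of the 142 long abundant genes with such a change.

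The largest change was that of c91765_g1 (4 transcripts), whose mean length was 2404 bases in skin but 6306, 6436 and 6391 in receptor cells, canals and liver. Its reads were 1090 in skin and 1147, 581 and 691 in the others, in the same order, so receptor cells and skin had nearly the same CPM (93.7 and 93.0). Its TPM was 47.4 in skin and 17.6, 8.01 and 11.96 in receptor cells, canals and liver, a 5.91-fold range. By reads it was level between receptor cells and skin, and per length it was 2.69-fold higher in skin. In c65065_g1 (3 transcripts) the length was 2207, 1736, 2380 and 1019 bases in receptor cells, canals, skin and liver, shortest in liver, and the TPM was 46.0, 49.5, 66.4 and 128.0.

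Liver also had the shortest mix in the other 4 members beyond 1.5-fold, named as the remainder of the 6. In 1 of these, c86990_g4, the skin length was nearly the same. At 1.1-fold or more liver did not predominate, being the shortest in 8 of the 36 members and the longest in 12. Among the 142 long abundant genes with such a change, liver was the shortest in 31 and the longest in 48. Assembled gene c81661_g1 had 1730, 2164, 1937 and 1161 bases, c92661_g1 had 2326, 2312, 2366 and 1312, and c93540_g3 had 1822, 1984, 2071 and 1256, in receptor cells, canals, skin and liver. In c86990_g4 the canal length was 1739 bases and the others 904.4, 846.1 and 841.0, so that its mean exceeded 1000 through canals alone. By CPM c81661_g1 was within 1.34-fold, and by TPM it ranged 2.54-fold, highest in liver. Of these 6 assembled genes, 5 exceeded 2-fold in TPM.

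Over all members, 28 exceeded 2-fold in TPM. Among the 36 with a change of length of at least 1.1-fold there were 12 (33.3%), and among the other 209 there were 16 (7.66%). Without such a change of length the TPM ratio reached at most 2.32, and with it 5.91. Apart from 1 factor per library, TPM divides the reads by length, and the rule held the CPM within 2-fold. A TPM ratio far above 2 thus requires a change of length, so the low maximum without one follows from the rule. The 2 shares were not compared with those of the long abundant genes. The plot of length against TPM shows a cloud close to the limit and a few members far above it.

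**Figure D4:**
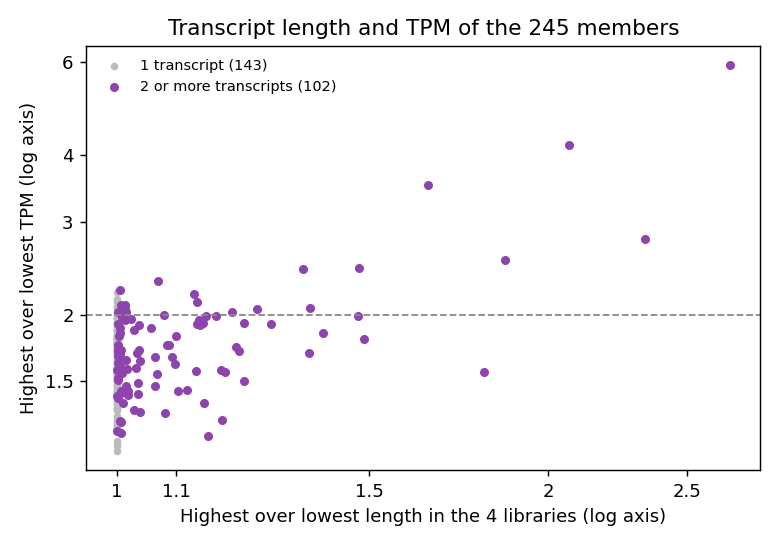
Ratio of the highest to the lowest TPM against the ratio of the longest to the shortest abundance-weighted length over the 4 libraries (both log axes), 1 point per member, by number of transcripts. Members with 1 transcript lie at a length ratio of 1, and the points with the largest TPM ratios, up to 5.91, are those with length ratios above 1.5.

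An assembled gene can also be part of a larger locus that the assembly divided. Of the 245 members, 52 shared their cluster with other assembled genes, up to 8 in all, and 1 cluster held 2 members. Those were c90372_g2 (2843 bases), with 734 reads from receptor cells, 583 from canals, 899 from skin and 518 from liver, and c90372_g3 (7052 bases), with 1100, 926, 757 and 624. The first was highest in skin and the second in receptor cells, so the 2 parts of 1 cluster did not share a profile.

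When the reads of each cluster were summed, 40 of the 52 remained within 2-fold and 12 did not. The largest departure was that of c93903_g1, chosen after the values were seen. It was within 1.56-fold by itself and its cluster sum ranged 26.5-fold, since it held 54.9% of the cluster's reads in receptor cells and 2.97% in liver. Of the 52, 13 held 90% or more of their cluster's reads in every library. In 14 the member held less than 50% in at least 1 library. The cluster sum was within 2-fold for 6 of these 14 and beyond it for 8, where the steady level belongs to the assembled gene alone. Only whole-number read counts in all 4 libraries, to within 0.001, were found for 238 members, and 7 had a count that was not whole. Such counts show only indirectly whether reads were shared between assembled genes. They were not compared with the other long abundant genes.

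The members' levels were similar from tissue to tissue, as the rule requires. Across the 245, Pearson's r of log2 CPM was 0.86 to 0.88 in the 6 pairs of libraries, and Spearman's rho was 0.74 (receptor cells and liver) to 0.81 (receptor cells and canals). Across the 1045 long abundant genes r was 0.54 (receptor cells and liver) to 0.76 (receptor cells and canals). The points are assembled genes of the same 4 libraries and are not replicates, and longer ones collect more reads in every library. In both sets receptor cells and canals gave the highest coefficient.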

How the data were processed

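The authors deposited 1 RSEM table per library (version 1.1.17 according to the submitters' processing notes), and how the transcripts were assembled and the reads aligned is not stated in the labels. Per the labels' protocols, tissue was stored in RNAlater, RNA was taken up in Trizol and 1 µg went into a stranded poly(A) library. Per the file headers, the deposited expected counts estimate the reads of each assembled gene without normalization, and they were rounded. The deposited TPM values, scaled by RSEM for length and depth, were used as an alternative level, and the deposited FPKM values were not used. The tables were read with Python 3.11.15 and pandas 2.3.3. CPM used library totals of 11071249 to 12303108 reads. TMM, RLE and upper-quartile factors came from edgeR 4.0.16 (R 4.3.3) over assembled genes with 10 reads in 1 library or more. Ratios carry exact (Clopper-Pearson) 95% intervals on 2 counts; shares carry exact binomial ones (scipy 1.17.1). PCR copies are not independent molecules, so intervals cover counting error only. The rule was also run on simulated data. Whether it places assembled genes near the 2-fold limit correctly was not tested. Named assembled genes are the extremes of level, length, ratio, transcript number and tissue preference and those at each limit; exceptions are marked. The members and all counts were chosen with earlier results of these data known. With 1 library per tissue there is no test.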

Additional observations from a re-analysis of the deposited data

How the results depend on the processing

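No paired analysis was possible because no tissue has more than 1 library, which also leaves no replicate to drop. Of 93 alternative values, 36 stayed close to the reported one (within 1.5 times, or for shares within the counting interval) and 57 moved; the cause was not tested except where the setting itself admits more or fewer assembled genes. The number of members, 245, became 732 with a minimum of 100 reads, 1132 with 1 read, 83 with 1000 reads, 65 at 1.5-fold, 587 at 3-fold, 386 with totals without the 50 dominant assembled genes, and 421 when libraries were centred on the long abundant genes (added after the data were seen). Applied to 3 libraries, the rule gave 388 without receptor cells, 394 without canals, 426 without skin and 1134 without liver. The read minimum and the mean length then also covered only those 3 libraries. Among the 1045 long abundant genes, those within 2-fold in the 3 libraries were 381, 354, 393 and 580, in the same order. The number of members stayed within 173 to 352 under the other settings, which were no rounding, TMM, RLE, upper quartile, TPM, cluster sums and other length limits. Of the 245, 109 stayed within 2-fold by TMM, 99 by RLE and 89 by upper quartile.

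The counts at 1.5-fold depended on the scaling. With TMM they were 0 higher and 89 lower for receptor cells against canals, 0 and 75 for receptor cells against skin, 0 and 194 for receptor cells against liver, 31 and 27 for canals against skin, 0 and 111 for canals against liver, and 0 and 111 for skin against liver. Among the 1045 long abundant genes, the 3 pairs with receptor cells had 106 and 395, 110 and 440, and 98 and 488. The other pairs had 223 and 290, 187 and 323, and 216 and 287, in the same order. With totals without the 50 dominant, the members higher than in liver became 0 for all 3 tissues, and those lower 66 for receptor cells, 76 for canals and 56 for skin. The counts of 0 over liver in both scalings, and of receptor cells over canals with TMM, were fixed by the 2-fold limit and the factors. Without the 50 dominant, 328, 245 and 343 of the 1045 long abundant genes were at least 1.5-fold higher in receptor cells, canals and skin than in liver. In the same order, 232, 255 and 190 were at least 1.5-fold lower. With TPM, 7 members were lower in receptor cells than in canals, 13 lower in receptor cells than in liver, 9 higher in canals than in skin, and 29 higher and 32 lower in canals than in liver. The same counts among the 1045 long abundant genes were 146, 122, 153, 440 and 164. The highest library under TMM was receptor cells for 0, canals for 26, skin for 16 and liver for 203, and the lowest was receptor cells for 164 and liver for 0. With totals without the 50 dominant, the highest were 51, 34, 46 and 114 and the lowest 62, 100, 69 and 14, for receptor cells, canals, skin and liver. Liver was thus highest in 46.5% of the members and lowest in 5.71%. Among the 1045 long abundant genes it was highest in 21.1% and lowest in 35.5%. The limit held the members' other tissues at most 2 times liver by library totals. Relative to liver, those libraries are enlarged 1.45 to 1.51 times without the 50 dominant. The difference between the members and that group thus describes the selection. The members' shares of the totals without the 50 dominant were 3.86%, 3.90%, 3.95% and 4.80%. With 1000 reads, 12 of the 83 members then left had a length change of 1.1-fold and 3 of 1.5-fold. How many of the 83 had 2 or more transcripts, and the shares among long abundant genes at that minimum, were not computed.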
